A study of Homo sapiens with 4 samples.

Results

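The genes described here are 49 regulators of chromatin, chosen by name as listed subunits of the SWI/SNF complexes BAF, PBAF and ncBAF, of CHD and NuRD complexes, of ISWI and INO80 complexes and of PRC2, together with histone-modifying enzymes known from renal cancer. All 49 were found among the 34080 genes of the series, and all 49 passed the low-count filter that left 13569 genes for testing. They comprise 26 SWI/SNF subunits, 11 CHD and NuRD genes, 4 ISWI and INO80 genes, 3 PRC2 genes and 5 histone enzymes.

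HK-2 is an established cell line from the proximal tubule of a human kidney. The HK-2 cells used here carried a Tet-On construct from which HA-tagged PRCC-TFE3, the chimeric transcription factor of some renal cell carcinomas with rearranged TFE3, is made when doxycycline is added. Doxy(+) cultures received 0.2 microg/ml doxycycline for 24 h and Doxy(-) cultures received none, both in medium with 1.5% serum and both carrying the inducible transgene. Each group had 2 libraries of polyadenylated RNA. Doxycycline was not given to HK-2 cells without the construct in the data used here, so its own effect and that of PRCC-TFE3 cannot be told apart, and no source says whether a replicate number stands for a separate culture, so p-values measure the spread between libraries, which may be technical. The study asked what loss of ARID2, the defining subunit of PBAF, does in cells with this fusion, and the comparison here addresses how the genes of that complex and of its relatives were expressed when the fusion was switched on.

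SWI/SNF complexes use the energy of ATP to slide or evict nucleosomes and so open regulatory DNA. An ATPase, SMARCA4 or SMARCA2, works on a core of shared subunits, and the remaining subunits decide the type of complex, with ARID1A or ARID1B in canonical BAF, ARID2 and PBRM1 in PBAF, and BRD9 in ncBAF. NuRD joins a CHD remodeler to histone deacetylases, PRC2 writes the repressive mark on lysine 27 of histone H3, and several of these genes, among them PBRM1, SETD2 and BAP1, are known tumour suppressors of the kidney.

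The estimated counts summed to between 14042545 and 16618401 per library. TFE3, whose transcripts can receive reads of the transgene, measured 66.9 and 69.0 CPM (counts scaled to a library total of 1000000) in Doxy(-) against 367 and 322 CPM in Doxy(+), a log2 fold change of 2.34 (SE 0.07, adjusted p = 4.78e-05). The renal epithelial genes PAX8, KRT8, KRT18, CDH2 and GGT1 were expressed in all 4 libraries, with PAX8 between 398 and 462 TPM (transcript abundance per length, scaled to 1000000 per library), while ANPEP, LRP2, CUBN, SLC34A1 and AQP1, which mark differentiated proximal tubule, were each under 1 TPM. MME, a brush border peptidase of the same list, was between 2.32 and 8.63 TPM and was called higher in Doxy(+) (log2 fold change 1.31, adjusted p = 0.0026). Of the renal epithelial genes named first, GGT1 was called higher (0.25), CDH2 (-0.45), KRT8 (-0.24) and KRT18 (-0.24) were called lower, and PAX8 was not called (0.06). Of the 7 markers of other cell types, CD3E, CDH5 and UMOD were listed at 0 in every library, and the 7 together summed to between 9.35 and 15.02 TPM, mostly COL1A1. Of these 7, 2 were tested. COL1A1 was called lower (log2 fold change -0.40, adjusted p = 0.0414). NPHS1 was called higher (3.34, adjusted p = 0.0129) from few estimated counts, 1 and 2 in Doxy(-) and 17 and 14.1 in Doxy(+).

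First, the 49 genes were compared between Doxy(+) and Doxy(-). Of these, 7 were called lower in Doxy(+) (14.3%), namely SMARCA4, ACTL6A, ARID1A, DPF3, PHF10, MTA1 and KMT2D, and 2 were called higher (4.08%), namely BCL7A and MTA3. Calls were made with edgeR's quasi-likelihood test at an adjusted p below 0.05 over all 13569 genes, by which 9.53% of all tested genes were called lower and 9.76% higher. The changes were small. No member passed a log2 fold change of 1 in size together with that p, against 1.98% of all tested genes, and the 49 log2 fold changes ran from -0.82 to 0.62. Their median was -0.06, and 34 of 49 (69.4%) were below 0, whereas the median over all tested genes was 0.0006 and 49.9% were below 0. At an unadjusted p under 0.05 there were 18 members. The share of all tested genes at that limit is not given here, so 18 cannot be read as many or few. The calls depended on the tool, since DESeq2 called 3 members lower and 0 higher and limma on log2(TPM + 1) called none, a scale on which the median of the members was 0.000837 beside 0.0324 over all genes. Of the called members, SMARCA4, ACTL6A and MTA1 kept their calls with DESeq2. ACTL6A alone kept its call with counts scaled by transcript length, and SMARCA4 and PHF10 with protein-coding transcripts alone.

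The SWI/SNF subunits accounted for most of the members below 0. Of 26, 23 had a log2 fold change below 0 (88.5%, against 49.9% of all tested genes), with a median of -0.09. Called lower were 5 (19.2%, against 9.53%) and higher 1 (3.85%, against 9.76%). In 14 of the 26 (53.8%) both Doxy(+) libraries lay below both Doxy(-) libraries, which was so for 30% of all tested genes, and in 3 both lay above, against 31.1% of all tested genes. Among the 23 members outside SWI/SNF, 11 were below 0, the median was 0.03, and 2 were called lower and 1 higher. Summed over the 26 SWI/SNF subunits, the level was 1035 and 1038.5 TPM in the Doxy(-) libraries and 940.2 and 961 TPM in the Doxy(+) libraries, a difference of -8.30% in the mean, while the 11 CHD and NuRD genes summed to 842 and 875 TPM against 852 and 892 TPM. Abundant subunits weigh most in such a sum, so it is not a change shared by all 26. Mean TPM fell most in ACTL6A (160 to 126), SMARCE1 (120 to 98.7) and SMARCA4 (62.6 to 46.8). SMARCE1 was not called, and Doxy(-) 2 was its highest library, at 132 TPM. Per length, mean TPM was higher in Doxy(+) for SMARCA2, SMARCC1, SMARCD3, BCL7A, BCL7B, BCL7C, PBRM1, BRD7 and BICRA. Some of these differed little, such as SMARCC1 (48.26 to 48.29), and BRD7 differed more (61.0 to 70.8). The 23 below 0 therefore hold for summed counts, and fewer subunits were lower per length. In a bulk library, less RNA per cell and fewer cells of a kind cannot be told apart. The difference between SWI/SNF and the other members was not tested.

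**Figure D1:**
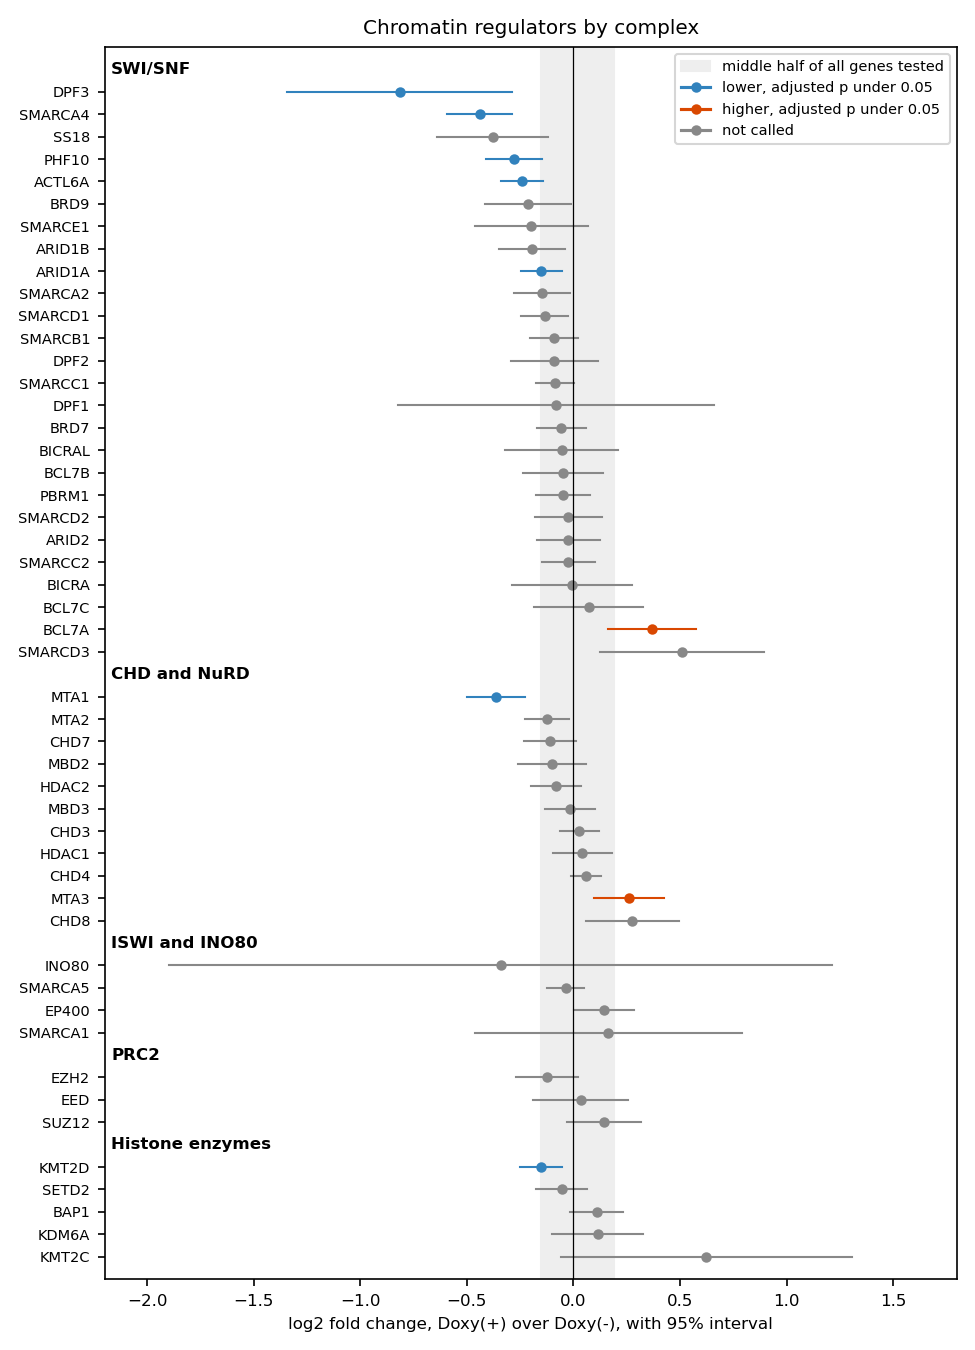
Log2 fold change of each of the 49 chromatin regulators, Doxy(+) over Doxy(-), grouped by complex, with points for the estimate, lines for its 95% interval from edgeR and a grey band for the middle 50% of all tested genes. Most of the 26 SWI/SNF subunits lie left of 0, with DPF3 at -0.82 and SMARCD3 at 0.51 as the ends of that group, while the other groups lie on both sides of 0.

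The ATPases were taken next. SMARCA4 (BRG1), the more abundant of the paired ATPases, had 149 and 139.5 CPM in Doxy(-) against 111 and 101 CPM in Doxy(+), with no overlap. It fell by 0.44 on the log2 scale (SE 0.06, adjusted p = 0.0057), to 0.737 of its Doxy(-) level, and stayed called whichever of the 4 libraries was left out, with log2 fold changes between -0.51 and -0.37. SMARCA2 (BRM), its paralogue, was measured at 57.4 and 55.9 CPM in Doxy(-), compared with 50.9 and 51.4 CPM in Doxy(+). Its groups did not overlap either, but it was not called, with a log2 fold change of -0.15 (SE 0.05, adjusted p = 0.113). The SMARCA4 call rests on summed counts, since it was lost with counts scaled by transcript length (log2 fold change -0.46, adjusted p = 0.136), where the spread between the Doxy(+) libraries was wider, with SMARCA4 at 54.8 and 38.7 TPM in Doxy(+) against 66.7 and 58.4 TPM in Doxy(-).

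Within the gene, SMARCA4-203, the most abundant transcript and protein-coding, gave 72.6 and 51.8 CPM in Doxy(-) versus 35.1 and 35.8 CPM in Doxy(+). The canonical SMARCA4-201 had 37.4 and 47.4 CPM in Doxy(-) against 39.9 and 34.9 CPM in Doxy(+), and these groups overlapped. A retained-intron transcript, SMARCA4-217, overlapped as well. Transcript values are the quantifier's division of shared reads and were not tested. The gene lies on chromosome 19 from 10960932 to 11079426 on the plus strand of hg38. Its promoter is shown because SMARCA4 had the smallest adjusted p of the 49. The bases are the 150 before the first of 2 RefSeq transcription starts (GRCh38.p14, chr19:10960880-10961029, plus strand), all in lower case because neither CACGTG nor CATGTG, on either strand, was found in the 300-base RefSeq windows of this gene.
SMARCA4: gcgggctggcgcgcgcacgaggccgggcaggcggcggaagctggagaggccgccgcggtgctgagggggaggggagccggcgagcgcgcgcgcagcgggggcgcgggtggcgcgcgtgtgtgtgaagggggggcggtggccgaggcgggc

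Among the 11 subunits listed as shared core, 1 was called lower and 1 higher, 8 were below 0 and the median was -0.05. For this and each later count by class, the shares over all tested genes are 9.53% lower, 9.76% higher and 49.9% below 0. ACTL6A (BAF53A), the actin-related protein of the proliferating cell's complex, was measured at 149 and 145 CPM in Doxy(-), compared with 126 and 123 CPM in Doxy(+), and fell by 0.24 on the log2 scale (SE 0.04, adjusted p = 0.0104). Its libraries did not overlap. The call was lost without Doxy(+) 1 or Doxy(+) 2, in both limma fits and with protein-coding transcripts alone (log2 fold change -0.20). BCL7A, a small subunit that binds the ATPase module, gave 32.2 and 34.2 CPM in Doxy(-) versus 39.9 and 45.8 CPM in Doxy(+). It rose by 0.37 on the log2 scale (SE 0.09, adjusted p = 0.0318), with both Doxy(+) libraries above both Doxy(-) libraries. The call was lost without Doxy(-) 1 or without Doxy(+) 2 (log2 fold change 0.26). DESeq2, both limma fits, length-scaled counts and protein-coding transcripts alone ended it too.

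Its paralogues BCL7B and BCL7C were not called, at -0.05 and 0.07. SMARCD3 (BAF60C), the form of the BAF60 subunit known from heart and muscle, had 11.5 and 8.78 CPM in Doxy(-) against 15.1 and 13.6 CPM in Doxy(+). This was the largest positive log2 fold change of the SWI/SNF subunits, 0.51 (SE 0.16), and missed the threshold (adjusted p = 0.0750). It passed when a term for the replicate number was added. The log2 fold change of SMARCD3 was 0.71 without Doxy(-) 1. With protein-coding transcripts alone it was 1.045, which was not called. The transcript SMARCD3-202 was measured at 1.68 and 1.47 CPM in Doxy(-), compared with 6.20 and 3.45 CPM in Doxy(+). SMARCD1 (BAF60A), the main form in these cells, gave 109 and 107 CPM in Doxy(-) versus 96.8 and 100.2 CPM in Doxy(+), and was not called (log2 fold change -0.13, adjusted p = 0.0917). SMARCD2, the form needed for granulocyte maturation, had overlapping groups, at -0.02.

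None of the remaining core subunits was called. SMARCC1 (BAF155) had 178 and 177 CPM in Doxy(-) against 166 and 169 CPM in Doxy(+), a log2 fold change of -0.09 with a 95% interval from -0.17 to 0.00 that was not called (adjusted p = 0.159). SMARCC2 (BAF170) had overlapping groups, at -0.02 with an interval from -0.15 to 0.10. SMARCB1 (SNF5), the subunit that holds the complex to the nucleosome and is lost in rhabdoid tumours, was measured at 101 and 104 CPM in Doxy(-), compared with 97.3 and 94.9 CPM in Doxy(+), and was not called (log2 fold change -0.09, adjusted p = 0.223). SMARCE1 (BAF57), an HMG-domain subunit, gave 94.0 and 118 CPM in Doxy(-) versus 89.8 and 95.8 CPM in Doxy(+). Doxy(-) 2 stood above the other 3 libraries, and without Doxy(-) 1 the SMARCE1 log2 fold change of -0.20 became -0.36. Protein-coding transcripts took 43.3% of its count as a mean over the 4 libraries. With these alone the log2 fold change was -0.55, which was not called. Another tested gene overlaps SMARCE1 on the same strand, which makes its count less certain.

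Next, the subunits were compared by the type of complex under which each was listed here. All 6 subunits listed under canonical BAF were below 0, with a median of -0.17, and 2 were called lower. ARID1A, the DNA-binding subunit most often mutated in cancer, had 142 and 145 CPM in Doxy(-) against 131 and 128 CPM in Doxy(+). It fell by 0.15 on the log2 scale (SE 0.04, adjusted p = 0.0459), without overlap, but lost its call when any 1 of the 4 libraries was left out (adjusted p between 0.0519 and 0.249). ARID1B, its alternative, was measured at 86.5 and 95.8 CPM in Doxy(-), compared with 80.9 and 78.3 CPM in Doxy(+), and was not called (log2 fold change -0.20, adjusted p = 0.085), although without Doxy(-) 1 it passed (log2 fold change -0.27, adjusted p = 0.0219).

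DPF3 (BAF45C), a double PHD finger subunit that reads histone marks, had the most negative log2 fold change of the 49. It gave 4.32 and 4.91 CPM in Doxy(-) versus 2.66 and 2.57 CPM in Doxy(+), from 55.7, 72.2, 34.2 and 34.5 estimated counts, and fell by 0.82 on the log2 scale (SE 0.22, adjusted p = 0.0479). Leaving out any 1 of the 4 libraries ended its call (adjusted p between 0.0859 and 0.176). Most of these reads were given to DPF3-213, a transcript with no defined coding sequence, and protein-coding transcripts took 1.88% of the DPF3 count as a mean over the 4 libraries, all of it from Doxy(-) 1. The related DPF2, the main form here, and DPF1 both had overlapping groups. SS18, the subunit fused to SSX in synovial sarcoma, had 16.7 and 17.4 CPM in Doxy(-) against 12.4 and 13.8 CPM in Doxy(+), and just missed the threshold (log2 fold change -0.38, SE 0.11, adjusted p = 0.0582).

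The PBAF subunits were also all below 0 by summed counts, 4 of 4, with a median of -0.05 and 1 called lower. Per length, mean TPM was higher in Doxy(+) for PBRM1 (23.2 to 26.3) and BRD7 (61.0 to 70.8). ARID2, which the study deleted in other cells, was measured at 53.8 and 56.6 CPM in Doxy(-), compared with 55.7 and 53.0 CPM in Doxy(+). The groups overlapped, and the log2 fold change of -0.02 had a 95% interval from -0.17 to 0.12 (adjusted p = 0.823). PBRM1 (BAF180), the bromodomain subunit often lost in clear cell renal carcinoma, overlapped too, at -0.05 with an interval from -0.18 to 0.08. BRD7, a further bromodomain subunit, was not called at -0.06 (adjusted p = 0.458). PHF10 (BAF45A), the PHD finger subunit of PBAF, gave 65.3 and 66.1 CPM in Doxy(-) versus 53.1 and 55.3 CPM in Doxy(+).

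PHF10 fell by 0.28 on the log2 scale (SE 0.05, adjusted p = 0.0177). The call was lost without Doxy(+) 1 (log2 fold change -0.25) or Doxy(+) 2, with DESeq2, in both limma fits and with length-scaled counts. Within the gene, PHF10-202 had 26.1 and 23.5 CPM in Doxy(-) against 15.5 and 13.4 CPM in Doxy(+). The canonical PHF10-201 had 8.81 and 10.2 CPM in Doxy(-) and was higher in both Doxy(+) libraries, at 11.3 and 13.6 CPM. The 3 subunits listed under ncBAF gave no call. BRD9, the bromodomain subunit that defines ncBAF, was measured at 40.4 and 44.5 CPM in Doxy(-), compared with 34.5 and 38.8 CPM in Doxy(+) (log2 fold change -0.21, SE 0.08, adjusted p = 0.134), and its overlapping same-strand neighbour ZDHHC11 makes the count less certain. BICRA and BICRAL, the paired GLTSCR1-type subunits, overlapped between the groups, at -0.01 and -0.06.

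**Figure D2:**
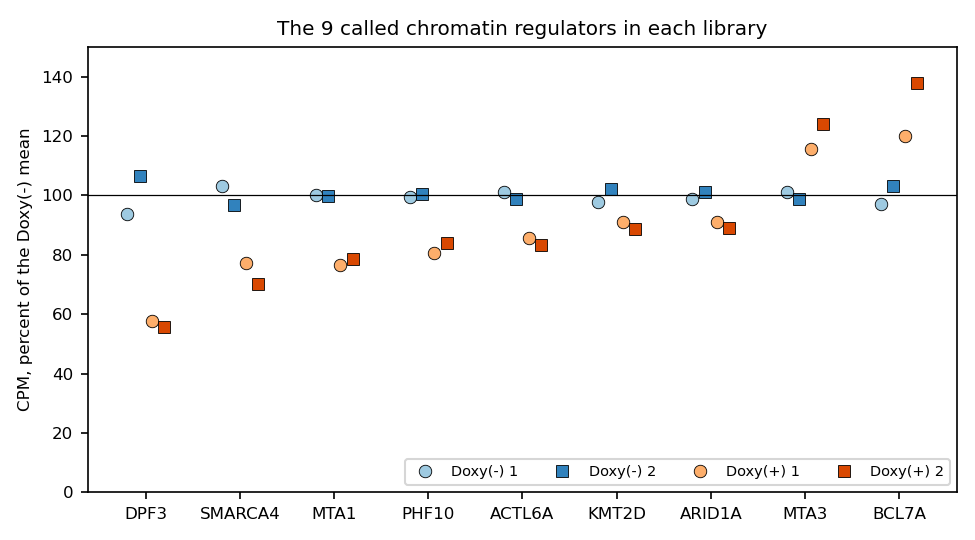
CPM of the 9 called members in each of the 4 libraries, as a percent of the Doxy(-) mean of that gene, ordered from the most negative to the largest log2 fold change. In all 9 the Doxy(+) libraries lie on one side of the Doxy(-) libraries, below 100% for the 7 called lower and above it for MTA3 and BCL7A. These genes were chosen by the test on the same libraries, so this separation is not further evidence. Of all tested genes, 30% lay below and 31.1% above in this way.

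Turning to NuRD, the 9 subunits held 1 gene called lower and 1 called higher, both of the MTA family, the scaffold that joins the deacetylases to the complex. MTA1 gave 49.4 and 49.1 CPM in Doxy(-) versus 37.8 and 38.8 CPM in Doxy(+), and fell by 0.36 on the log2 scale (SE 0.06, adjusted p = 0.0073). Its call was lost without Doxy(+) 1 (adjusted p = 0.0615), with length-scaled counts (log2 fold change -0.29, adjusted p = 0.0996) and with protein-coding transcripts alone (log2 fold change -0.32, adjusted p = 0.172). MTA3 had 33.6 and 32.8 CPM in Doxy(-) against 38.4 and 41.2 CPM in Doxy(+). It rose by 0.26 on the log2 scale (SE 0.07, adjusted p = 0.0434), and no call remained when any 1 of the 4 libraries was left out (adjusted p between 0.0644 and 0.241). MTA2, the third of the family, was measured at 108 and 110.2 CPM in Doxy(-), compared with 99.6 and 101 CPM in Doxy(+), without overlap and without a call (log2 fold change -0.13, adjusted p = 0.0981).

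The promoters of these paralogues that were called in opposite directions are printed for comparison, each as the 150 bases before the first RefSeq start, MTA1 from chr14:105419677-105419826 and MTA3 from chr2:42493960-42494109, both on the plus strand of GRCh38.p14. Neither CACGTG nor CATGTG, read on both strands, was found in the 300-base windows of either gene, so no bases are in capitals.
MTA1: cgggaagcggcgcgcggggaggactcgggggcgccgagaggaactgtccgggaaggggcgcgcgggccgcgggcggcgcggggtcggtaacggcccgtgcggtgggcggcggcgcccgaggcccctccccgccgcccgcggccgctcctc
MTA3: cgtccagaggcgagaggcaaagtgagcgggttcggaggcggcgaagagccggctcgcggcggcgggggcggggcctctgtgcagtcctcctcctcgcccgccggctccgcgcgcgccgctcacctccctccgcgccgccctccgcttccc

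No catalytic NuRD gene was called. CHD4, the main ATPase of NuRD, gave 438 and 442 CPM in Doxy(-) versus 456 and 462 CPM in Doxy(+), a log2 fold change of 0.06 with a 95% interval from -0.01 to 0.13 (adjusted p = 0.214). CHD3, its paralogue, overlapped between the groups at 0.03 with an interval from -0.06 to 0.12. The deacetylases HDAC1 and HDAC2 were at 0.04 and -0.08 and were not called. MBD2, which reads methylated DNA, was at -0.10 and its relative MBD3 at -0.02, and neither was called.

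Within MBD3, transcript estimates differed between the groups, which was not tested. Its canonical transcript MBD3-202 had 57.8 and 51.9 CPM in Doxy(-) against 29.7 and 42.6 CPM in Doxy(+). MBD3-209, annotated as a target of nonsense-mediated decay, was measured at 6.13 and 7.83 CPM in Doxy(-), compared with 28.6 and 20.4 CPM in Doxy(+), so the share of the MBD3 count on protein-coding transcripts went from 92.7% and 91.3% to 69.3% and 78.4%. Another tested gene overlaps MBD3 on the same strand. Of the CHD genes outside NuRD, CHD8, a remodeler known from autism, gave 76.1 and 90.9 CPM in Doxy(-) versus 105 and 97.9 CPM in Doxy(+), and was not called (log2 fold change 0.28, SE 0.09, adjusted p = 0.0852), although without Doxy(-) 2 it passed (log2 fold change 0.41, adjusted p = 0.00525). CHD7, mutated in CHARGE syndrome, had 70.7 and 72.0 CPM in Doxy(-) against 65.9 and 66.2 CPM in Doxy(+), not called (log2 fold change -0.11, adjusted p = 0.179).

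**Figure D3:**
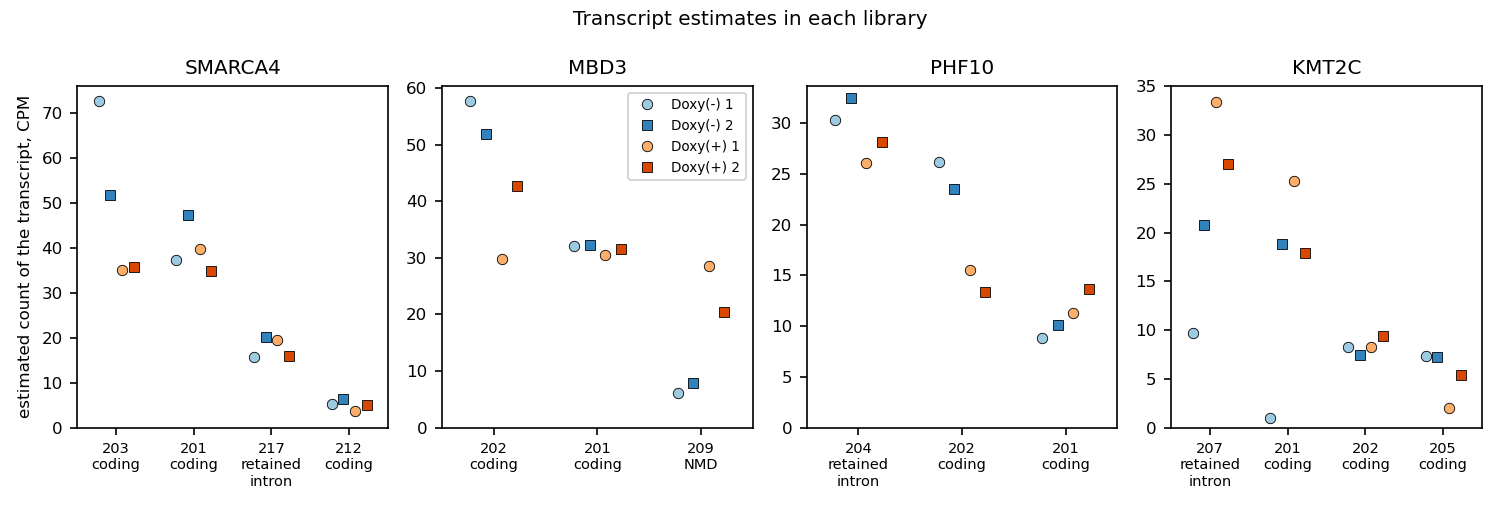
Estimated counts of the leading transcripts of SMARCA4, MBD3, PHF10 and KMT2C in each of the 4 libraries, in CPM, with the annotated kind of each transcript under its number (NMD stands for nonsense-mediated decay). SMARCA4-203, MBD3-202 and PHF10-202 lie lower in both Doxy(+) libraries, MBD3-209 lies higher, and KMT2C-201 is near 0 in Doxy(-) 1 alone.

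No ISWI, INO80 or PRC2 member was called. SMARCA5 (SNF2H), the ATPase of ISWI, was measured at 253 and 264 CPM in Doxy(-), compared with 253 and 251 CPM in Doxy(+), with a 95% interval of its log2 fold change from -0.12 to 0.05. Its relative SMARCA1 was scarce, between 2.52 and 3.20 CPM. EP400, the ATPase of the TIP60 complex, gave 134 and 121 CPM in Doxy(-) versus 138 and 143 CPM in Doxy(+), not called (log2 fold change 0.14, adjusted p = 0.149) except without Doxy(-) 1 (log2 fold change 0.21, adjusted p = 0.0301). INO80, the ATPase of its own complex, varied more within groups than between them, with 6.45 and 11.4 CPM in Doxy(-) against 11.7 and 2.44 CPM in Doxy(+). Its canonical transcript was not among the identifiers used and none of its count fell on protein-coding transcripts, so its values are less certain than those of the other members.

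EZH2, the methyltransferase of PRC2, had 80.9 and 74.5 CPM in Doxy(-) against 70.2 and 72.1 CPM in Doxy(+), and was not called (log2 fold change -0.13, SE 0.06, adjusted p = 0.203). SUZ12, the PRC2 scaffold, was measured at 77.9 and 88.6 CPM in Doxy(-), compared with 93.7 and 90.6 CPM in Doxy(+) (log2 fold change 0.14, adjusted p = 0.219), passed without Doxy(-) 2 (log2 fold change 0.24, adjusted p = 0.0342), and has a pseudogene that can share its reads. EED, which reads the methyl mark that PRC2 writes, was between 20.4 and 22.7 CPM in all 4 libraries.

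Among the 5 histone enzymes, 1 was called. KMT2D (MLL4), which writes the enhancer mark on lysine 4 of histone H3, gave 201 and 211 CPM in Doxy(-) versus 188 and 183 CPM in Doxy(+), and fell by 0.15 on the log2 scale (SE 0.04, adjusted p = 0.0470). The call was lost without Doxy(-) 2 (adjusted p = 0.104), Doxy(+) 1 (adjusted p = 0.161) or Doxy(+) 2 (adjusted p = 0.247), and the level per length showed no such difference, with 16.8 and 17.3 TPM in Doxy(-) against 17.6 and 15.8 TPM in Doxy(+). KMT2C (MLL3), its paralogue, had the largest positive value of the 49, 0.62 with an SE of 0.28 (adjusted p = 0.183). It had 28.4 and 56.2 CPM in Doxy(-) against 70.8 and 60.5 CPM in Doxy(+), so that Doxy(-) 1 stood apart from the other 3 libraries.

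Without Doxy(-) 2, KMT2C was called at a log2 fold change of 1.21 (adjusted p = 0.000375), and without Doxy(-) 1 it was at 0.22 (adjusted p = 0.189). Per length it was at 12.2 and 12.5 TPM in Doxy(-) and at 14.6 and 10.7 TPM in Doxy(+), and with length-scaled counts its log2 fold change was -0.0043. The canonical transcript KMT2C-201, of 16862 bases, was given 0.978 CPM in Doxy(-) 1 and between 17.9 and 25.3 CPM in the other 3 libraries. KDM6A (UTX), which removes the mark of PRC2, overlapped between the groups at 0.11. SETD2, the methyltransferase for lysine 36 of histone H3, and BAP1, a deubiquitinase of histone H2A, are both tumour suppressors of clear cell renal carcinoma, and neither was called, SETD2 at -0.06 with a 95% interval from -0.18 to 0.07 and BAP1 at 0.11 with an interval from -0.02 to 0.23.

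TFE3 and its relatives bind E-boxes, chiefly CACGTG, which reads alike on both strands, and CATGTG. RefSeq promoter windows, which run from 250 bases before a transcription start to 50 after it, were given for 43 of the 49 members and were missing for ACTL6A, ARID2, BAP1, CHD7, SMARCC1 and SMARCC2. CACGTG was found in 4 of these 43 (9.30%) and in 2396 of 27305 genes with such windows (8.78%). CATGTG was found in 1 of the 43, SMARCA2 (2.33%), against 13.4% of all genes. Of the 6 members called lower that have a window, KMT2D alone held CACGTG, and of the 2 called higher neither did. A match is a match of letters and was not tested for binding. The 60 bases around the match are shown for the 4 genes, on the strand of the gene, with the E-box in capitals, KMT2D at chr12:49060883-49060942 (minus strand), PBRM1 at chr3:52686011-52686070 (minus), BCL7B at chr7:73557825-73557884 (minus) and KDM6A at chrX:44873066-44873125 (plus), all GRCh38.p14.
KMT2D: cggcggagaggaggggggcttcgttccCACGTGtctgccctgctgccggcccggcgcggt
PBRM1: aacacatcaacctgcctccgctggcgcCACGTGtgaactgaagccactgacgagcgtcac
BCL7B: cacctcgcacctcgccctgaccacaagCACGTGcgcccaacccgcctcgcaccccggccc
KDM6A: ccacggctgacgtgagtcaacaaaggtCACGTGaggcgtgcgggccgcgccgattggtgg
The E-box began 121 bases before the start in KMT2D, 130 in PBRM1, 167 in BCL7B and 95 in KDM6A. Of these 4 genes, only KMT2D was called.

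Several subunits are chosen from paralogues, so the share of each in its family was computed from TPM, which is a level per length. With 2 libraries against 2, an exact permutation test cannot give a p below 0.333, so shares are described without a test. SMARCA4 made up 81.0% and 73.9% of the SMARCA2 and SMARCA4 total in Doxy(-) and 77.7% and 64.8% in Doxy(+), and these overlapped. In the BAF60 family, SMARCD1 held 62.5% and 60.8% in Doxy(-) and 56.1% and 57.7% in Doxy(+), while SMARCD3 went from 10.5% and 8.95% to 13.5% and 13.7%. The SMARCD1 difference of -4.75 points was -1.71 points with protein-coding transcripts alone, and that of SMARCD3 was 3.85 points and then 3.09.

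BCL7A made up 24.2% and 24.6% of the BCL7 total in Doxy(-) and 28.3% and 30.4% in Doxy(+), with BCL7B correspondingly lower. In the MTA family, MTA1 went from 34.5% and 35.4% to 30.6% and 29.8%, and MTA3 from 21.6% and 18.7% to 25.5% and 28.4%. The groups overlapped for neither, nor for MTA2. Separation of the groups was common among paralogue shares. Those of SMARCC1, SMARCC2, DPF2, DPF3, CHD3, CHD4, HDAC1 and HDAC2 did not overlap either. With protein-coding transcripts alone the MTA1 difference of -4.72 points was -1.90 points and the MTA3 difference of 6.79 points was 3.94 points. All shares leave out transcript copies whose identifiers were not matched to a gene. The largest such copy of MTA1 held 971.84 counts over the 4 libraries, against 2366.85 kept for the gene. For BCL7B these were 860.35 and 1280.73. The shares in the MTA and BCL7 families are thus those of matched transcripts only, and were not computed with copies. EZH2 held 74.2% and 71.7% of the EZH1 and EZH2 total in Doxy(-) and 66.4% and 68.6% in Doxy(+). EZH1, the less active methyltransferase of resting cells, is not one of the 49. It was measured at 33.7 and 35.1 CPM in Doxy(-), compared with 45.2 and 44.6 CPM in Doxy(+), and rose by 0.38 on the log2 scale (SE 0.06, adjusted p = 0.0074).

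**Figure D4:**
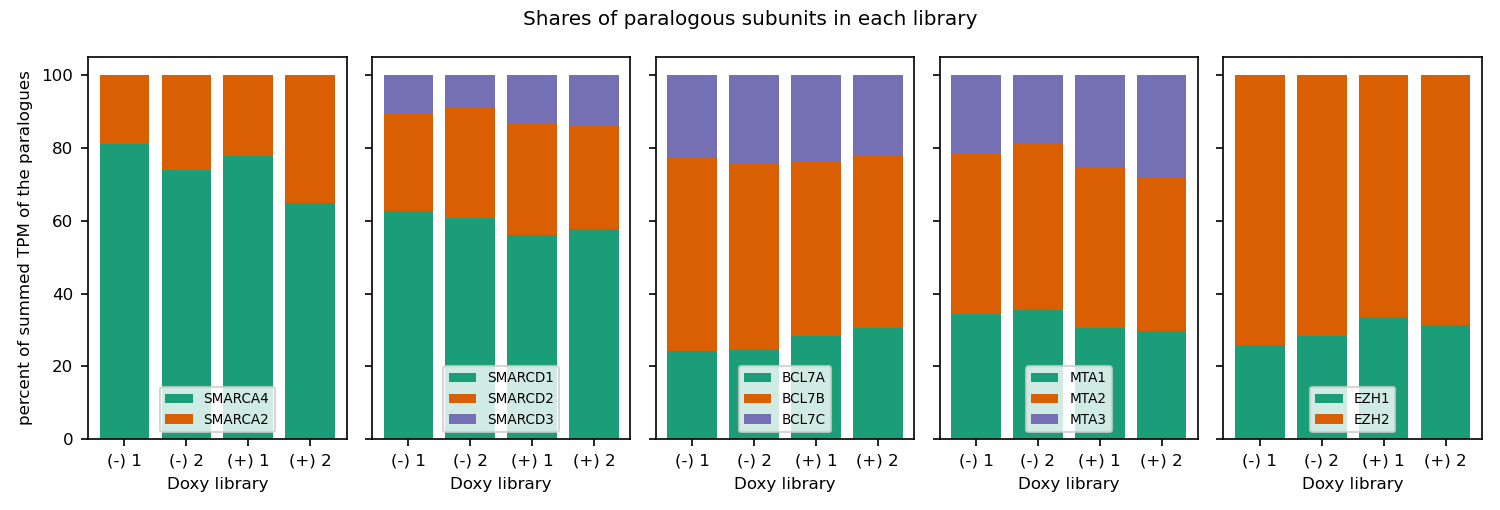
Share of each paralogue in the summed TPM of its family, in percent, for each of the 4 libraries and 5 families. SMARCD3, BCL7A, MTA3 and EZH1 take larger shares in both Doxy(+) libraries than in either Doxy(-) library, while the SMARCA4 shares of the groups overlap. Shares within the SMARCC, CHD3 and CHD4, and HDAC1 and HDAC2 families, not drawn, also separate. Copies of MTA1, BCL7B and EZH2 with unmatched identifiers are left out.

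Compared per length in Doxy(-), the most abundant member was HDAC2, at 206 and 202 TPM, above ACTL6A at 170.0 and 150.2 TPM and HDAC1 at 148 and 160 TPM, whose libraries overlapped one another. SMARCE1, CHD4, SMARCB1 and SMARCD1 followed, with means between 90.4 and 120 TPM, of which SMARCE1 and CHD4 overlapped. The remodeler ATPases SMARCA5 and SMARCA4 were near each other, at means of 64.6 and 62.6 TPM. At the low end were BICRA, DPF1, BICRAL and DPF3, with means between 2.40 and 5.31 TPM, and SMARCA1 at 0.928 TPM. ARID2, at 12.5 TPM, was lower than PBRM1, at 23.2 TPM, and ARID1A, at 34.2 TPM, was above ARID1B, at 22.4 TPM. The order of these pairs was the same in all 4 libraries.

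Further subunits of the same complexes were counted from a list of which 75 genes were found and 71 were tested. Of the 71, 8 were called lower (11.3%, near the 9.53% of all tested genes) and 3 higher (4.23%, against 9.76%). Below 0 were 41 (57.7%, against 49.9%), with a median of -0.05. RUVBL1 and RUVBL2, the paired AAA+ ATPases shared by INO80, SRCAP and TIP60, both fell, by 0.32 (SE 0.05, adjusted p = 0.0064) and by 0.35 on the log2 scale (SE 0.04, adjusted p = 0.0028). PHF19, a Polycomb-like subunit of PRC2, gave 96.5 and 92.1 CPM in Doxy(-) versus 61.0 and 64.6 CPM in Doxy(+) and fell by 0.58 on the log2 scale (SE 0.06, adjusted p = 0.0015). The other genes called lower were ACTB, the actin that is also a subunit of BAF and INO80, at -0.31, INO80E at -0.26, BRD8 of the TIP60 complex at -0.34, the H3 lysine 4 methyltransferase KMT2A at -0.27 and the H3 lysine 36 methyltransferase NSD2 at -0.29. Those called higher were RBBP4, a histone chaperone of NuRD and PRC2, at 0.24, EZH1, and ASXL2, a partner of BAP1, at 0.22.

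Finally, 15 cell cycle genes were read beside the members. Of the 15, 11 were called lower (73.3%, against 9.53% of all tested genes) and 1, MCM2, higher (6.67%, against 9.76%). Their median log2 fold change was -0.33. The 15 genes summed to 2353 and 2308 TPM in Doxy(-) and to 2057 and 2038 TPM in Doxy(+), a difference of -12.2%. The SWI/SNF sum, in which abundant subunits weigh most, differed by -8.30%. The part of the cell cycle genes in the SWI/SNF values was not tested.

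**Figure D5:**
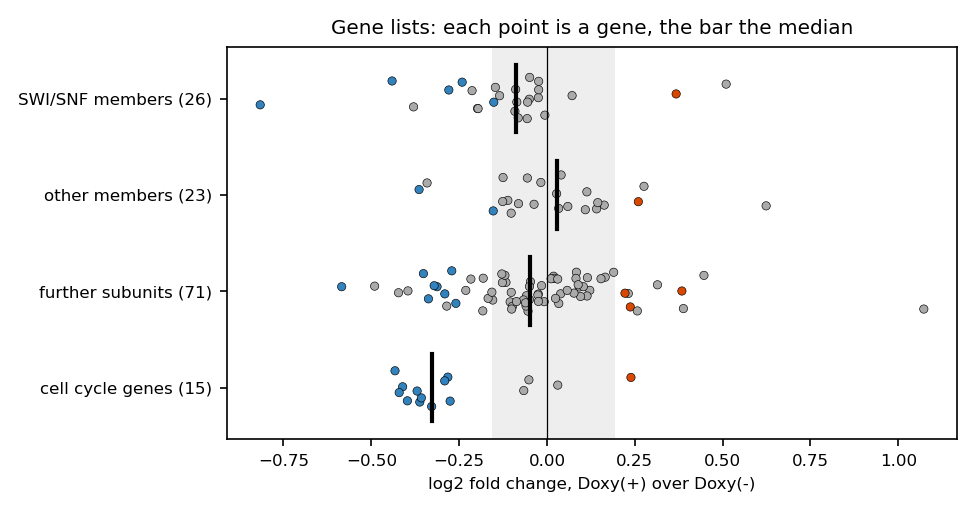
Log2 fold changes of the genes of 4 lists, 1 point per gene, with blue for genes called lower, orange for genes called higher and a black bar for the median. The median is -0.09 for the 26 SWI/SNF subunits, 0.03 for the other 23 members, -0.05 for the 71 further subunits and -0.33 for the 15 cell cycle genes.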

How the data were processed

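RNA sequencing libraries of HK-2 cells were compared, 2 from Doxy(-) and 2 from Doxy(+). Per the labels and the study's methods, reads were trimmed with Trim Galore 0.6.6 (cutadapt 2.5) and aligned to hg38 with STAR 2.7.9a. The methods name RSEM and DESeq2, but the files have the columns of kallisto. The version of the quantifier, its transcript release and the strand setting are not given in the sources used here. The authors deposited an estimated count and a TPM value for each of 180253 transcripts. The deposited estimated counts are not normalized, and reads compatible with more than 1 transcript were split among these, also among paralogues. The deposited TPM values, scaled per length, sum to 1000000 in each library.

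Estimated counts were summed per gene through GENCODE release 44, to which 150691 identifiers (83.6%) matched. The 29562 others carried 9.66% to 9.89% of a library's count and were left out, except that 3034 copies of matched transcripts were added in 1 alternative. Sums were rounded and tested with edgeR 4.0.16 (R 4.3.3, glmQLFit and glmQLFTest, TMM, filterByExpr, group as the only term, 2 residual degrees of freedom), with Benjamini-Hochberg adjustment over 13569 genes. Genes were called at an adjusted p under 0.05, with no fold limit. SEs are those implied by the F statistic, and intervals are 95%. Log2 fold changes are Doxy(+) over Doxy(-). CPM values are scaled to TMM-adjusted totals of gene counts. The common biological coefficient of variation was 6.53%. A count of 0 allows 3 counts, or 0.204 to 0.233 CPM, for counting error only. The function was tested on simulated data.

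Alternatives were RLE factors, DESeq2 1.42.0, other low-count filters, limma 3.58.1 on log2(TPM + 1) and log2(TPM + 0.1), a replicate block, leaving out each library, length-scaled counts, protein-coding transcripts alone, added copies, an adjusted p under 0.01 and a fold limit. Named are all 49 members and the called genes among the further subunits. The members and lists were chosen with earlier results of these data known. Among members, 11 have exons overlapping another tested gene (4 on the same strand), 10 have pseudogenes and 5 (BCL7B, EZH2, KMT2C, MTA1 and SS18) have copies among the unmatched identifiers, so their values are less certain. For 6 members (SMARCB1, ARID1B, PBRM1, CHD8, INO80 and KDM6A) the canonical transcript is not among the identifiers used. Promoters are RefSeq windows on GRCh38.p14.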

Additional observations from a re-analysis of the deposited data

How the results depend on the processing

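The counts of called members changed with the processing. Members called lower (7) numbered 3 with DESeq2, 0 with limma on log2(TPM + 1) and 0 on log2(TPM + 0.1), 1 with length-scaled counts, 2 with protein-coding transcripts alone, 2 with the p limit at 0.01, 0 with a fold limit of 1 on the log2 scale, and 1 to 8 when a library was left out. Members called higher (2) numbered 0 with DESeq2, both limma fits, length-scaled counts, protein-coding transcripts, the stricter p or the fold limit, 1 with no low-count filter, and 0 to 4 when a library was left out. SWI/SNF subunits called lower (5) numbered 2 with DESeq2, 0 with either limma fit, 1 with length-scaled counts, 2 with protein-coding transcripts, 1 at the stricter p, 0 with the fold limit and 1 to 5 when a library was left out, and those called higher (1) numbered 0 in each of these settings, and 0 to 1 when a library was left out. Over all tested genes DESeq2 called 777 lower and 772 higher, limma 62 and 193 on log2(TPM + 1) and 3 and 16 on log2(TPM + 0.1), against 1293 and 1325. The median of the members (-0.056) was -0.0356 with length-scaled counts and -0.0760 to -0.0410 when a library was left out, and turned to 0.000837 and 0.000849 in the limma fits, where the median of all genes was 0.0324 and 0.0357. The cause of these changes was not tested.

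No source says whether same-numbered libraries share more than a number. Over the 13569 tested genes, the difference between the libraries of Doxy(-) correlated with that of Doxy(+), taken in the same order, at -0.0147. A single value of this kind cannot show whether the numbers mark a pairing. With the replicate block, 4 members were called lower, 3 of them SWI/SNF subunits, and 2 SWI/SNF subunits were called higher. Of 125 values of the 9 called members under alternatives, 59 stayed past the threshold, 66 did not and 0 changed sign. Of 560 values of the 40 other members, 9 passed the threshold and 52 had the other sign. Protein-coding transcripts gave no value for DPF3. With 2 libraries per group, depth is not the only limit: scarce members such as SMARCA1, DPF1 and INO80 had wide intervals, and a member not called is not shown to be unchanged.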
